A study of Arabidopsis thaliana with 10 samples.

Results

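Roots that overexpress SDI1 (OX) were set against roots of the sdi1sdi2 double knockout (KO), both grown with full sulfate, so that gain and loss of SDI function were compared without the wild type as control. The comparison used 4 of the 10 arrays of the study, chosen by their labels and not by any measured value. OX was represented by 1 array each of lines SDI1ox-6 and SDI1ox-12, and KO by 1 array each of lines sdi1sdi2-1 and sdi1sdi2-4. All were roots of Arabidopsis thaliana seedlings after 10 days on agar medium with 1500 µM sulfate (+S). The other arrays, 2 in each group, were the wild type, accession Columbia (Col), at 15 µM sulfate (-S), KO at -S and Col at +S. RNA was hybridised to ATH1, a short-oligonucleotide array with 22810 probe sets. The sources used here do not name the promoter that drives SDI1 in OX, nor any other change that OX plants carry. Each OX or KO array is a separate transgenic or mutant line, so the spread between replicates in these groups includes differences between lines. Nothing in the labels ties the Col arrays to separate cultures, and the p-values measure only the spread between these arrays.

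SDI1 and SDI2 encode tetratricopeptide-repeat proteins whose transcripts accumulate when sulfur is short, and they are known as repressors of glucosinolate synthesis. Glucosinolates are sulfur-rich defence compounds of the cabbage order. Those of the aliphatic class are made from methionine, whose side chain is first lengthened, then built into the glucosinolate core and finally modified. The same sulfur supply feeds primary assimilation, in which ATP sulfurylase activates sulfate and sulfite reductase makes sulfide for cysteine.

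All values below are on a log2 scale, where a difference of 1 is a change of 2-fold, and each difference is given with the standard error (SE) of the fit. Differences are OX minus KO unless stated otherwise. They come from limma, fitted to 22197 probe sets with the spread pooled over the 10 arrays, and a probe set was called at a Benjamini-Hochberg adjusted p under 0.05. Arrays of the same group correlated at 0.9904 to 0.9959. The background level of an array was the 0.95 quantile of 22 Bacillus control probe sets. It stood at 0.01 and -0.30 on the OX arrays and at -0.51 and -0.52 on the KO arrays. Root markers EXPA7 and EXPA18 of root hairs and SGN3 of the endodermis lay above background on all 4 arrays. So did the shoot genes RCA, LHCB4.1, LHCB4.2 and PSAE1, and none of these 7 genes was called, with differences between -0.39 (RCA) and 0.36 (EXPA18). In whole roots, fewer cells of a type and less RNA per cell cannot be told apart.

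SDI2 was the targeted gene with a listed probe set. Its level was 1.52 and 1.86 in OX, against -0.35 and -1.16 in KO, and 1.83 and 1.57 in Col at +S. Both OX arrays lay above both KO arrays and near the wild type, but the KO lines were far apart, and of these only line 4 was under background. The difference was 2.44 ± 0.50 and was not called (adjusted p = 0.14). With the knockout line as a block, which pairs the KO arrays of a line across sulfate levels, it was called (adjusted p = 0.0039). SDI1 itself has no listed probe set and its overexpression was not checked by name. The position of the insertions relative to the SDI2 probe set is not stated, and probes outside the disrupted stretch would not check the knockout.

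Of the 22197 probe sets, 85 (0.383%) were called, 17 higher in OX (0.0766%) and 68 lower in OX (0.306%). The falls were the larger group and the deeper one. Their median difference was -1.43, 47 reached 2-fold, 24 reached 4-fold and 7 reached 16-fold. Among the rises the median was 0.90, 5 reached 2-fold, and the largest difference of 9.43 was followed by 1.31. The median over all probe sets was 0.04. Every called probe set was without overlap between the OX and the KO arrays, as were 46.2% of all probe sets. The counts depended on single arrays: without KO line 1 at +S there were 2 rises and 39 falls, without OX line 12 there were 3 and 45, without OX line 6 there were 6 and 53, and without KO line 4 at +S there were 11 and 109. The rises also numbered 8 without either Col array at +S and 10 without either KO array at -S. With the knockout line as a block there were 11 and 55.

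**Figure D1:**
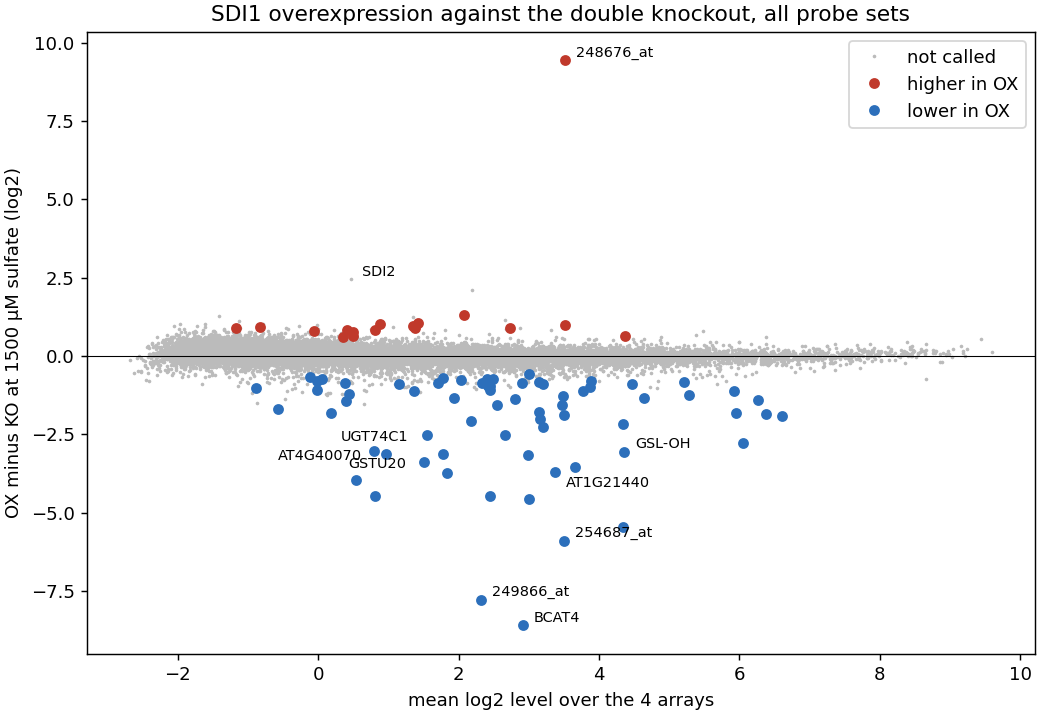
The horizontal axis is the mean log2 level of each probe set over the 4 arrays and the vertical axis is OX minus KO at 1500 µM sulfate (log2). The 68 called falls reach -8.59 and the 17 called rises reach 1.31, apart from 248676_at at 9.43, and SDI2 at 2.44 is not called.

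The 23 called falls with a single listed gene were led by genes of aliphatic glucosinolate synthesis. BCAT4 (AT3G19710), the aminotransferase that starts methionine chain elongation, read -1.34 and -1.42 in OX, against 7.11 and 7.32 in KO. Both OX arrays were under background, so on the scale of the arrays the fall was at least 164-fold, with a fitted difference of -8.59 ± 0.21 (adjusted p = 1.6e-07). Spiked controls rose more steeply than their concentration on these arrays, so this and the later bounds may overstate the fold in RNA. Among all 85 called probe sets, only 248676_at had a larger fitted difference. GSTU20 (AT1G78370), a glutathione transferase of the core pathway, read -0.20 and -0.19 in OX, against 3.04 and 3.36 in KO, and fell by 3.39 ± 0.15 (adjusted p = 6.9e-06). In OX it was near the background, under it in line 6 and above it in line 12. UGT74C1 (AT2G31790), a glucosyltransferase of the core pathway, read 0.39 and 0.19 in OX, against 2.67 and 2.96 in KO (difference -2.52 ± 0.16, adjusted p = 8.9e-05). GSL-OH (AT2G25450), which hydroxylates the side chain of a finished glucosinolate, read 2.88 and 2.78 in OX and 5.94 and 5.84 in KO, a difference of -3.06 ± 0.11 (adjusted p = 1.5e-06). These falls included the first step of chain elongation, core synthesis and side-chain modification, and the OX level of GSL-OH stayed well above background.

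Of the 27 genes listed for aliphatic glucosinolate synthesis, 5 had a measured probe set with a single gene, and these 4 fell while none rose. A list gene counts as measured here only with such a probe set. Others may be among the 8632 tested probe sets without a listed gene. The median of the 5 was -3.06, against 0.04 over all probe sets, and -3.0 or -3.08 after quantile normalization or median centring. The fifth, AOP3, a side-chain dioxygenase, was under background on all OX and KO arrays. Of the 13 genes listed for indolic glucosinolate synthesis, the branch that starts from tryptophan, only UGT74B1 had a probe set with a single gene. This glucosyltransferase of the core pathway read 3.01 and 3.34 in OX, against 3.87 and 3.97 in KO. The groups did not overlap, but the difference of -0.74 ± 0.13 was not called (adjusted p = 0.081), and it was called in 4 of 20 other settings. Of the regulators, MYC3 and MYC4, transcription factors that act with the glucosinolate MYBs, differed by 0.03 ± 0.19 and -0.17 ± 0.24, and neither was called. The MYB regulators themselves are not among the genes listed with a single probe set and were not analysed here.

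Breakdown and transport genes gave no call among 4 measured. The transporter GTR2 read 3.39 and 3.67 in OX and 4.2 and 4.17 in KO, a difference of -0.66 ± 0.15 (adjusted p = 0.18). GTR1, the related transporter, read 1.98 and 1.84 in OX and 2.25 and 1.71 in KO, where the KO lines lay on either side of the OX lines. PYK10, a beta-glucosidase of roots, differed by -0.18 ± 0.15 at a high level of 8.67 and 8.92 in OX and 8.99 and 8.96 in KO. BGLU28, a beta-glucosidase induced by low sulfur, was under background on all 4 arrays.

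Of the 21 genes listed for primary sulfate assimilation, only 3 were measured, and of these 1 fell and none rose. The remaining members could not be followed by name, so this count does not describe the whole list. SIR (AT5G04590), the sulfite reductase, read 4.66 and 4.66 in OX, against 5.86 and 5.93 in KO, and fell by 1.23 ± 0.10 (adjusted p = 0.0007). ATPS3, an ATP sulfurylase, read 0.54 and 0.83 in OX and 1.74 and 1.37 in KO, a difference of -0.87 ± 0.14 that just missed the threshold (adjusted p = 0.051) and passed it in 6 of 20 other settings. ATPS4, another ATP sulfurylase, read 7.46 and 7.49 in OX and 7.7 and 7.67 in KO and was not called (-0.21 ± 0.11, adjusted p = 0.6). All 3 genes had a lower mean in OX than in KO. No gene of the sulfate transporter list had a measured probe set. In the family of SDI1 and SDI2, MS5L2 differed by -0.08 ± 0.10 and was not called, and MS5L1 was under background on all 4 arrays.

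**Figure D2:**
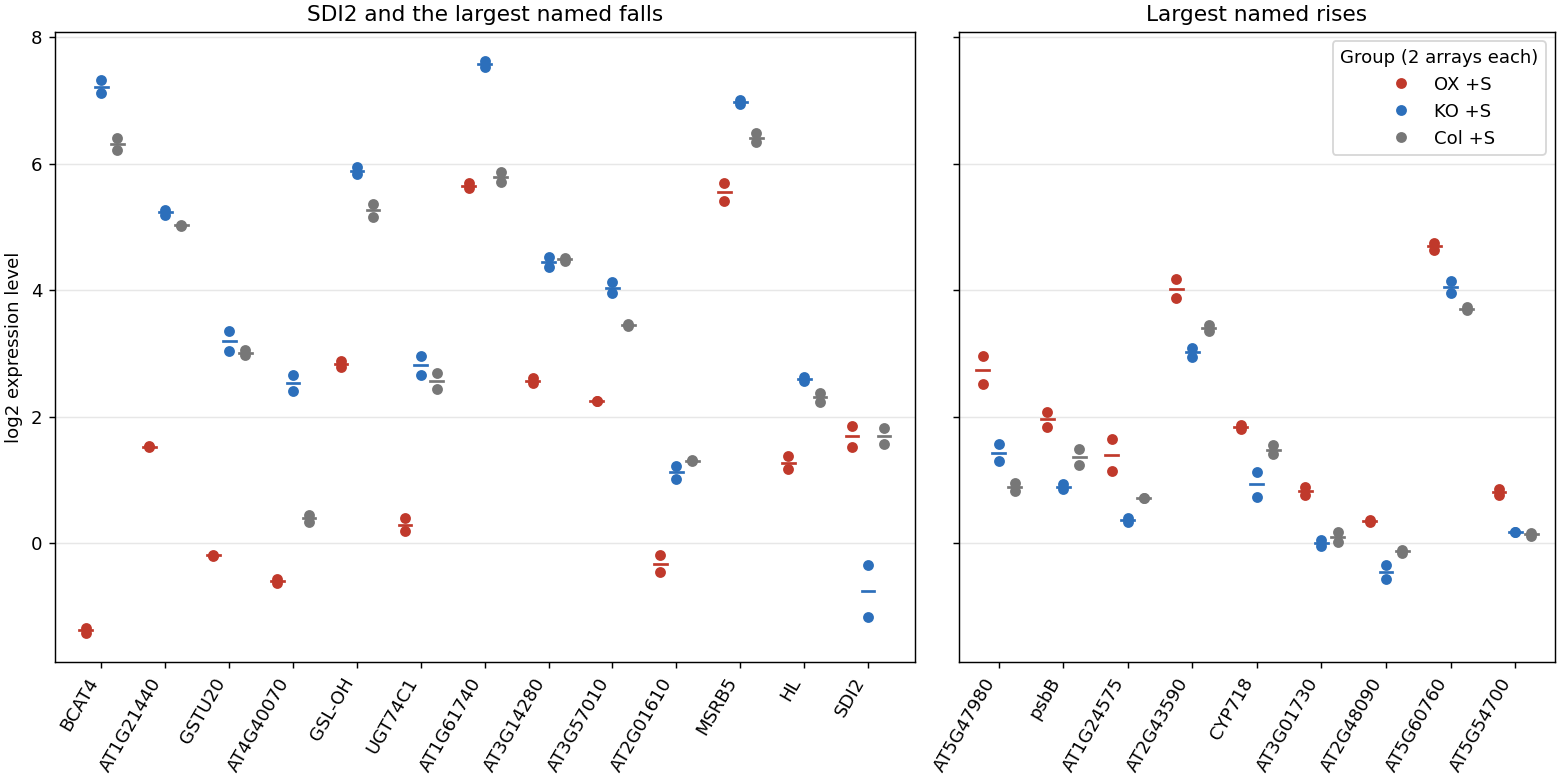
Points are the log2 levels of single arrays and short lines the group means, for OX +S, KO +S and Col +S with 2 arrays each. For BCAT4 both OX arrays lie under -1.3 and both KO arrays above 7, while the OX and KO means of the rises shown differ by at most 1.31.

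Outside these lists, AT1G21440, of the phosphoenolpyruvate carboxylase and mutase family, had the deepest fall after BCAT4 among single-gene probe sets. It read 1.54 and 1.51 in OX, against 5.19 and 5.27 in KO (-3.71 ± 0.11, adjusted p = 6.8e-07), with lines of a group less than 0.1 apart. AT4G40070, a RING finger protein, was under background in OX at -0.57 and -0.62, against 2.66 and 2.4 in KO, a fall of at least 6.39-fold (adjusted p = 5.4e-06). AT1G61740, of the TauE/SafE sulfite exporter family, was a highly expressed gene in both groups, at 5.61 and 5.69 in OX and 7.53 and 7.62 in KO (-1.93 ± 0.10, adjusted p = 2.0e-05). AT3G14280 read 2.53 and 2.61 in OX, against 4.36 and 4.53 in KO (-1.88 ± 0.12, adjusted p = 0.00011).

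Smaller falls were measured in 4 further named genes. MSRB5, a methionine sulfoxide reductase, read 5.41 and 5.7 in OX and 6.94 and 7.0 in KO (-1.41 ± 0.12, adjusted p = 0.00068). HL, a HAL2-like nucleotide phosphatase, read 1.38 and 1.17 in OX and 2.56 and 2.63 in KO (-1.32 ± 0.12, adjusted p = 0.00095). AT2G01610, of the pectin methylesterase inhibitor family, read -0.46 and -0.19 in OX and 1.23 and 1.01 in KO (-1.44 ± 0.12, adjusted p = 0.0008). In each of these genes both lines of OX lay more than 1 below both lines of KO. AT3G57010, of the strictosidine synthase-like family, read 2.25 and 2.25 in OX, against 3.95 and 4.13 in KO (-1.79 ± 0.22, adjusted p = 0.0094). Its call was lost in 4 of 20 other settings. The other 10 single-gene falls lay between -1.12 (AT3G45700) and -0.59 (AT3G53190).

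A further 44 falls were measured by probe sets for which the annotation used here lists no gene, and 1 by a probe set with several. Of the 44, 18 reached 4-fold with a median of -1.62, and of the 23 with a single gene, 6 reached 4-fold with a median of -1.32. The deepest, 249866_at, was under background in OX at -1.57 and -1.57, against 6.15 and 6.27 in KO, a fall of at least 81.7-fold (adjusted p = 1.1e-07). Probe set 254687_at read 0.65 and 0.45 in OX and 6.36 and 6.54 in KO (-5.9 ± 0.18, adjusted p = 6.8e-07). In all, 13 of the 68 falls were under background on both OX arrays and none on both KO arrays.

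The 17 rises were smaller and came from dimmer probe sets, with a median level of 1.39 in OX and 0.36 in KO, against 1.70 in OX and 3.53 in KO for the falls. Of the 17, 10 had a single listed gene. AT5G47980, an acyltransferase of the BAHD family in the thalianol gene cluster, read 2.52 and 2.96 in OX, against 1.29 and 1.56 in KO, and rose by 1.31 ± 0.17 (adjusted p = 0.016). The plastid gene psbB, for the CP47 protein of photosystem II, read 1.84 and 2.07 in OX and 0.93 and 0.86 in KO (1.06 ± 0.14, adjusted p = 0.015). AT2G43590, of the chitinase family, had the second highest level among the named rises, at 4.17 and 3.87 in OX and 2.95 and 3.08 in KO (1.0 ± 0.13, adjusted p = 0.011). In these 3 genes the lower OX line still exceeded the higher KO line.

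AT5G60760 read 4.75 and 4.64 in OX and 3.95 and 4.15 in KO (0.64 ± 0.10, adjusted p = 0.043). AT1G24575 rose by 1.03 ± 0.15, with 1.14 and 1.64 in OX and 0.33 and 0.40 in KO (adjusted p = 0.027). CYP718, a cytochrome P450, rose by 0.90 ± 0.14, with 1.86 and 1.8 in OX and 0.73 and 1.13 in KO (adjusted p = 0.039). AT3G01730, AT2G48090 and AT5G54700 rose by 0.82 ± 0.12, 0.81 ± 0.10 and 0.63 ± 0.10. The calls of AT5G60760 and CYP718 were lost in 13 of 20 other settings, that of AT5G54700 in 11, those of AT1G24575 and AT3G01730 in 10, that of psbB in 5, that of AT2G48090 in 4 and those of AT5G47980 and AT2G43590 in 3. With the knockout line as a block the adjusted p was 0.064 for AT1G24575, 0.068 for CYP718, 0.072 for AT3G01730, 0.074 for AT5G60760 and 0.079 for AT5G54700. RR16, a type-A response regulator of the cytokinin pathway, was called but under background in both groups, so no fold is given.

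Among the rises without a listed gene, 248676_at stood apart from every other probe set. It read 7.95 and 8.52 in OX, against -1.39 and -1.0 in KO, where it was under background, a rise of at least 429-fold (adjusted p = 1.2e-07). In Col at +S it was also under background, at -0.96 and -1.08. The annotation used here lists no gene for 248676_at and no probe set for SDI1. Whether 248676_at measures SDI1, whose level is set by the genotypes compared, was not tested. The next in size, 266965_at, read -0.54 and -0.22 in OX and -1.23 and -1.36 in KO, with OX line 6 and both KO arrays under background, and its call was lost in 15 of 20 other settings, among them the block (adjusted p = 0.086).

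In the other gene lists the called members were few, and are read beside the 0.383% of all probe sets that were called. In all, 27 of 35 lists had a measured member and 5 held a called one. Of 11 tau-class glutathione transferases only GSTU20 was called, and of 52 UDP-glycosyltransferases only UGT74C1, both already counted in the aliphatic list. Of 69 plastid-encoded transcripts psbB alone was called, and the median of the 69 was -0.07. No member was called in the lists of xyloglucan endotransglucosylases (10 measured), expansins (19), SWEET sugar transporters (16), calmodulin-like genes (8), glutathione redox and sulfurtransferases (4), auxin response (6) and iron deficiency (5). The same held for cold response (3), flavonoid synthesis (3), reference genes (3), jasmonate response (2), energy status (2), cell division (2) and the circadian clock (1). In 8 lists the sign of the median changed with quantile normalization or median centring, all with medians near 0. The wall enzyme XTH26 was under background in both groups and was not called (adjusted p = 0.051), nor was the glycosyltransferase UGT73B4 at -0.90 ± 0.17 (adjusted p = 0.1). Within the glutathione transferases, GSTU25 and GSTU26 differed by -0.61 ± 0.20 and 0.44 ± 0.15, and neither was called, against -3.39 for GSTU20. The expansins EXPA15 and EXPA4, which loosen cell walls, differed by -0.81 ± 0.16 and -0.68 ± 0.15 and were not called.

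**Figure D3:**
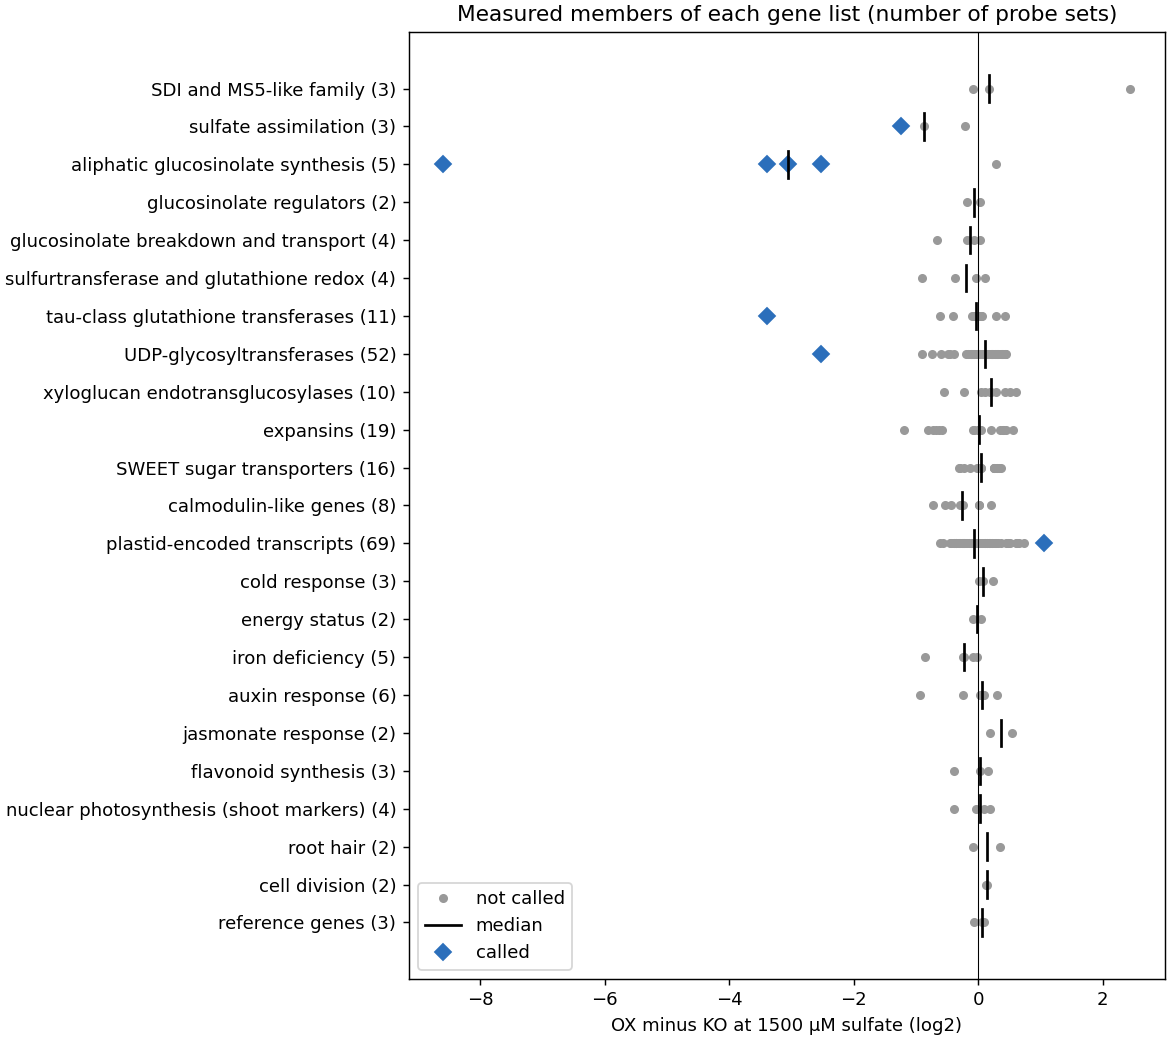
Each row is a gene list with 2 or more measured probe sets, each point a member's OX minus KO difference at 1500 µM sulfate (log2), and the black line the list's median. The aliphatic glucosinolate list, with a median of -3.06, and sulfate assimilation, with -0.87, lie left of the others.

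The 2 lines of each genotype gave alike differences for the called probe sets. Among the 85, the OX lines differed by over 0.5 in 2, 249752_at and 248676_at, and by at most 0.66, and the KO lines by at most 0.40. Over all probe sets, 1372 differed by over 0.5 between the OX lines and 528 between the KO lines. The SD of the line difference was 0.26 in OX and 0.20 in KO. The median of the 68 falls was between -1.57, for OX line 6 minus KO line 4, and -1.40, for OX line 12 minus KO line 1. Because a call needs a small spread between lines, these figures describe the called probe sets and do not test them.

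The second comparison of SDI genes present against absent lay at low sulfate, where Col carries the SDI genes and KO does not. Its levels came from 4 arrays that the comparison of OX with KO does not use, although the KO lines are the same. Its spread came from the same pooled fit, so each probe set had the same SE in both comparisons. A probe set called in OX against KO because of a small SE kept that small SE at -S. The shares called in both comparisons therefore do not come from separate tests. At low sulfate 248 probe sets were higher in Col (1.12%) and 384 were lower in Col (1.73%). Together these 632 became 252 without Col replicate 2 at -S, 274 without KO line 1 at -S and 304 without KO line 4 at -S. Over all probe sets the median of Col minus KO at -S was 0.04, so by sign alone a majority was higher in Col. Of the 68 probe sets that fell in OX, 64 were also lower in Col and 55 (80.9%) were called lower, which is 14.3% of the 384. Of the 17 that rose in OX, 13 were also higher in Col and 5 (29.4%) were called higher, which is 2.0% of the 248. These were 248676_at, 266965_at, 249490_s_at, CYP718 and AT5G54700. Without KO line 4 at +S, 109 probe sets fell in OX and 43 of them (39.4%) were called lower in Col at -S. Under the other settings that held both comparisons the share lay between 72.9% and 94.9%.

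BCAT4 read -0.63 and -1.35 in Col at -S, against 8.7 and 8.9 in KO at -S, a fall of at least 432-fold. GSTU20 read 1.01 and 0.61 in Col at -S and 6.32 and 6.38 in KO at -S, and GSL-OH read 2.63 and 2.5 in Col and 6.86 and 6.86 in KO. Each of these genes was thus low both in OX at full sulfate and in Col at low sulfate, and high in KO at both sulfate levels. SIR read 5.2 and 5.19 in Col at -S and 7.23 and 7.29 in KO at -S, a difference of -1.23 ± 0.10 at +S and -2.06 ± 0.10 at -S. AT1G61740 read 4.49 and 4.54 in Col at -S, against 6.92 and 6.98 in KO at -S (-2.43 ± 0.10, adjusted p = 1.8e-06). The probe set 248676_at was again bright, at 8.86 and 9.13 in Col at -S, against -1.71 and -1.41 in KO at -S, at least 634-fold. ATPS3, which had missed the threshold at +S, differed by -1.85 ± 0.14 between Col and KO at -S (adjusted p = 0.00017). SDI2 read 5.65 and 5.47 in Col at -S, against 0.31 and -1.52 in KO at -S (adjusted p = 0.00021).

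The other named falls were followed in the same way. AT1G21440 read 2.71 and 2.45 in Col at -S, against 6.87 and 7.01 in KO at -S (-4.36 ± 0.11, adjusted p = 1.3e-07). AT4G40070 was under background in Col at -S, at -1.08 and -1.05, against 2.29 and 1.99 in KO at -S, at least 4.28-fold lower. AT3G14280 read 2.7 and 2.49 in Col at -S, against 4.46 and 4.21 in KO at -S, and HL read 3.72 and 3.52 in Col, against 4.88 and 4.85 in KO, both called. For AT1G21440, AT3G14280 and HL the difference between the comparisons was not called. The probe set 249866_at was under background in Col at -S, at -1.12 and -1.61, against 7.95 and 8.13 in KO at -S, at least 255-fold lower. MSRB5 read 7.86 and 7.86 in Col at -S, against 8.64 and 8.76 in KO at -S (-0.84 ± 0.12, adjusted p = 0.0066). AT2G01610 was lower in OX than in KO at +S, but at -S it read -0.62 and -0.65 in Col and -0.08 and -0.21 in KO and was not called (-0.49 ± 0.12, adjusted p = 0.083).

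Of the named rises, CYP718 and AT5G54700 were also called higher in Col at -S. CYP718 read 1.75 and 1.91 in Col, against 0.85 and 0.73 in KO (1.04 ± 0.14, adjusted p = 0.0052). AT5G54700 read 1.64 and 1.49 in Col, against 1.01 and 1.01 in KO (0.56 ± 0.10, adjusted p = 0.018). The gaps of both genes were close to those between OX and KO at +S, 0.90 ± 0.14 and 0.63 ± 0.10. AT2G43590 read 4.74 and 4.78 in Col at -S and 4.36 and 4.57 in KO at -S (0.29 ± 0.13, adjusted p = 0.26), and AT1G24575, AT3G01730, AT2G48090 and AT5G60760 were not called at -S either. Their differences there lay between 0.19 (AT2G48090) and 0.42 (AT5G60760).

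Across all probe sets the differences of the 2 comparisons correlated at r = 0.494 (22197 points), across the 85 called at 0.922, or 0.893 without 248676_at, and across the 22112 not called at 0.248. Probe sets are not independent replicates, and the points share the KO lines and the array platform. The 85 were also selected by OX minus KO, a side of the correlation, so their r describes them and tests nothing. The test of the difference between the comparisons called 115 probe sets (0.518%). This number was 20 without KO line 1 at +S, 41 without KO line 4 at -S, 52 without OX line 6, 66 without Col replicate 2 at -S and 67 without OX line 12 or KO line 1 at -S. Among the 68 falls the gap was called larger at -S in 22 and called smaller or opposite in 5 (AT5G37990, 250475_at, 257315_at, 249600_s_at and 261474_at), and 41 were not called. The 22 include 249866_at, 262717_s_at and 258322_at, under background in OX and in Col at -S, whose gaps are lower bounds. They also include 257311_at, under background on both OX arrays, whose gap at +S is a lower bound. Of the 5, 250475_at, 249600_s_at and 261474_at were under background on both OX arrays, so their gaps at +S are lower bounds. UGT74C1 differed by -2.52 ± 0.16 between OX and KO at +S and by -4.29 ± 0.16 between Col and KO at -S (adjusted p of the difference = 0.014). GSTU20 differed by -3.39 ± 0.15 and -5.54 ± 0.15 (adjusted p of the difference = 0.0049). For both genes Col at -S lay farther below KO at -S than OX lay below KO at +S. For BCAT4, AT4G40070 and 249866_at both gaps are known only as lower bounds, since OX and Col at -S were under background, and their sizes cannot be compared.

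The opposite pattern was seen in AT5G37990, of a methyltransferase family, which fell by 0.88 ± 0.10 in OX against KO at +S, with 4.1 and 3.96 in OX and 4.96 and 4.85 in KO. At -S it was higher in Col, at 7.26 and 7.37, against 6.74 and 6.65 in KO (0.62 ± 0.10, adjusted p = 0.014). It was the only 1 of the 68 falls to be called in the opposite direction. Among the rises psbB was called in the opposite direction, at 1.29 and 1.16 in Col at -S, against 2.0 and 2.29 in KO at -S (-0.92 ± 0.14, adjusted p = 0.0099). The 69 plastid-encoded transcripts had a median Col minus KO at -S of -0.515, against 0.041 over all probe sets, so a lower level there was not particular to psbB. AT5G47980 read 1.65 and 1.99 in Col at -S and 2.14 and 2.27 in KO at -S, which was not called (-0.38 ± 0.17), while the difference between the comparisons was called (adjusted p = 0.026). Among the rises the gap was called smaller or opposite at -S in 4, AT5G47980, psbB, RR16 and 248745_at, and larger in none.

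**Figure D4:**
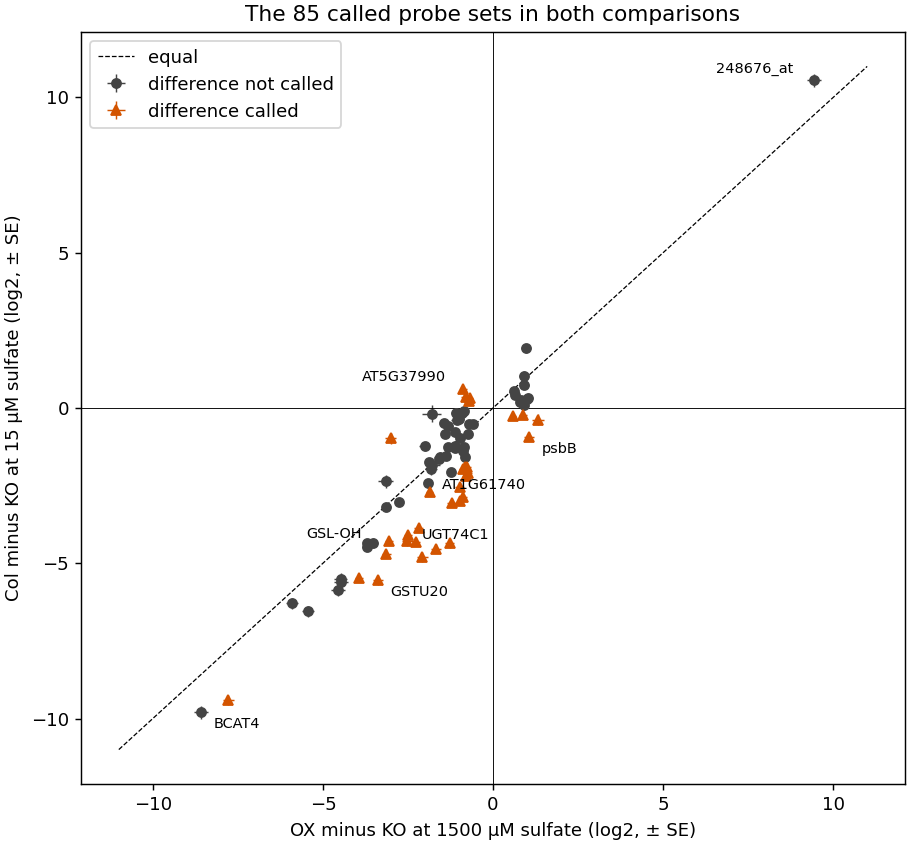
Each point is 1 of the 85 called probe sets, with OX minus KO at 1500 µM sulfate on the horizontal axis and Col minus KO at 15 µM sulfate on the vertical axis (log2, bars are SE), and triangles mark a called difference between the comparisons. Most falls lie on or under the dashed line of equal size, while psbB and AT5G37990 lie in the quadrants of opposite sign.

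The wild type at +S showed whether OX or KO was the group that stood away from it. On a scale where the KO mean is 0 and the OX mean is 1, the median position of Col was 0.18 for the 68 falls and 0.02 for the 17 rises. Col lay below 0.25 in 40 falls, between 0.25 and 0.75 in 23 and above 0.75 in 5 (AT1G61740, 267035_at, 249752_at, 252269_at and 260126_at). The OX mean of 13 falls and the KO mean of 3 rises rest on arrays under background, so those positions are not exact. The test of Col against the midpoint of OX and KO, which does not use the difference between them, called 79 probe sets (0.356%), or 8 without Col replicate 1 at +S, 22 without Col replicate 2, 31 without KO line 1 and 36 without OX line 6. Among the falls it placed Col nearer to KO in 21 and nearer to OX in 2 (AT1G61740 and 267035_at), and 45 were not called. Among the rises it placed Col nearer to KO in 5 (AT5G47980, AT5G60760, RR16, 248676_at and 248745_at) and nearer to OX in 0, and 12 were not called. RR16 was under background in all of these groups, so its place was not measured. These counts rested on few arrays: among the falls of each setting they were 6 and 0 without Col replicate 1 at +S, 7 and 1 without Col replicate 2, and 18 and 19 without KO line 4 at +S.

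BCAT4 read 6.4 and 6.22 in Col at +S, close to KO, at a position of 0.10 (adjusted p from the midpoint = 0.00015). GSTU20 and AT1G21440 read 3.05 and 2.97 and 5.02 and 5.04, both at a position of 0.06. In none of the 3 genes was KO called different from Col, and in all 3 OX was called lower than Col. Set side by side, BCAT4 differed by -7.69 ± 0.21 between OX and Col (adjusted p = 4.3e-07) and by 0.90 ± 0.21 between KO and Col (adjusted p = 0.36), 2 comparisons that share the Col arrays. BCAT4 was under background in OX, so the size of its OX minus Col difference is not exact. GSL-OH differed by -2.43 ± 0.11 between OX and Col and by 0.63 ± 0.11 between KO and Col, where only the first was called.

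Among the rises, AT5G47980 read 0.82 and 0.95 in Col at +S, below both KO arrays, and OX was higher than Col by 1.85 ± 0.17 (adjusted p = 0.0022). AT5G60760 read 3.73 and 3.68 in Col at +S, also below both KO arrays, and OX was higher than Col by 0.98 ± 0.10 (adjusted p = 0.0036). The plastid gene psbB read 1.24 and 1.48 in Col at +S, between the groups at a position of 0.44. AT2G43590 was also between, at 3.35 and 3.45 in Col and a position of 0.38. For both genes neither OX nor KO was called different from Col.

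AT1G61740 was the reverse case. It read 5.7 and 5.87 in Col at +S, against 5.61 and 5.69 in OX and 7.53 and 7.62 in KO, at a position of 0.93 (adjusted p from the midpoint = 0.008). KO was higher than Col by 1.79 ± 0.10 (adjusted p = 0.00036), and OX minus Col was -0.13 ± 0.10 (adjusted p = 0.79). The probe set 267035_at, chosen after its values were seen, was the other fall nearer to OX, with 4.58 and 4.76 in OX, 7.37 and 7.49 in KO and 5.17 and 5.18 in Col at +S. AT4G40070 was between, at 0.34 and 0.45 in Col at +S. It was called in both directions, lower in OX (adjusted p = 0.011) and higher in KO (2.14 ± 0.13, adjusted p = 0.00048). Both OX arrays were under background, so the fitted OX minus Col (-0.99 ± 0.13) and the position of 0.68 are not measured sizes. Over the 68 falls, 48 were called between OX and Col, 5 between KO and Col (AT4G40070, AT1G61740, 250475_at, 265897_at and 267035_at) and 18 in neither. Over all tested probe sets, 144 were called between OX and Col and 5 between KO and Col. The 5 falls named here were thus every call between KO and Col.

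**Figure D5:**
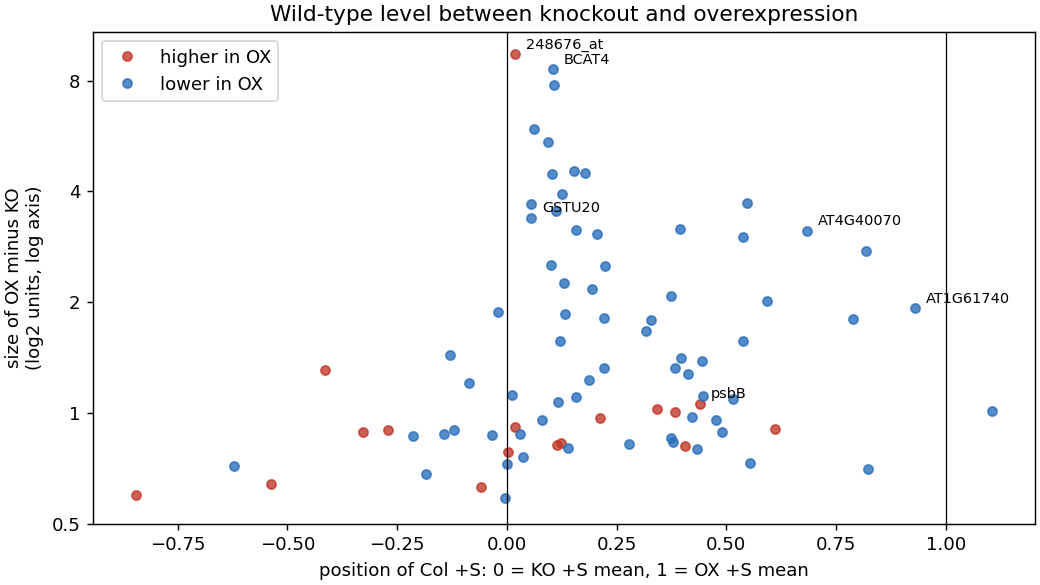
The horizontal axis gives the level of Col +S on a scale where the KO +S mean is 0 and the OX +S mean is 1, and the vertical axis the size of OX minus KO (log2 units on a log axis), for the 85 called probe sets. BCAT4, GSTU20 and 248676_at lie near 0, AT1G61740 at 0.93.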

How the data were processed

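Root RNA was measured on 10 ATH1 arrays, 2 in each of 5 groups, assigned from the sample titles. The authors deposited 1 log10 expression value for each probe set and array, and their background correction, summarization and normalization are not given in the sources used here. Spiked bacterial controls settled the log base, since they spanned 2.13 units, against 1.82 expected for log10 and 6.06 for log2. Their slope against nominal concentration was 1.14 to 1.20, so folds of bright probe sets may be overstated. Values were multiplied by log2 of 10, with no pseudocount. Of 22810 probe sets, 554 had no value and 64 were controls, which left 22197. The platform annotation gives a single gene for 13513, several for 503 and none for 8794, and symbols were updated through RefSeq TAIR10.1 for 13436. No coordinates are given because the build behind the annotation is not stated.

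One mean per group was fitted over all 10 arrays by lmFit and eBayes of limma 3.58.1 (R 4.3.3, residual degrees of freedom 5, prior 3.81), with Benjamini-Hochberg adjustment over 22197 probe sets. The fit was tested on simulated data. Tables were made with Python 3.11.15 and pandas 2.3.3. Where all arrays of the lower group were at or under background, a fold is a lower bound, computed from the mean of the brighter group and, per array of the lower group, the higher of the background and its own value, without correction for the spike-in slope. The number of arrays limits the precision.

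The members and the 35 gene lists were chosen with earlier results of these data known, and 318 genes were fixed by locus, of which 56 were measured. The key for plastid genes was changed after the files were read. No member had such a probe set in the lists of sulfate transporters, mitochondrion-encoded transcripts, cytosolic ribosomal proteins, phosphate starvation, nitrate assimilation, non-hair epidermis, stele, xylem and phloem, and root cap and stem cell niche. Probe sets for their genes may be among those without a listed gene. Named were the 12 largest rises and 12 largest falls among called single-gene probe sets above background in at least 1 group and without overlap between groups (all where fewer passed), all measured members of the sulfur and glucosinolate lists, up to 4 members of each other list by moderated t, the 2 largest rises and falls without a listed gene, and the 5 genes farthest from the midpoint in each direction. Other genes, named because a count of 5 or fewer or a boundary fell on them, were chosen after their values were seen: RR16, AT5G37990, AT3G45700, AT3G53190 and all probe sets given by ID except the 4 of the rule (248676_at, 266965_at, 249866_at and 254687_at). The arrays of a KO line at both sulfate levels are paired by plant line (correlation of their deviations 0.07), Col arrays share only a number (-0.14), and OX and KO share no line.

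Alternatives were quantile normalization, median centring, leaving out the lowest 20% of probe sets, a filter on background, robust variances with an intensity trend, only the 4 arrays compared or the 6 at full sulfate, array weights, the knockout line as a block, 1 probe set per gene, and leaving out each array.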

Additional observations from a re-analysis of the deposited data

Results flagged for a closer look

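In the probe sets given here the gap between OX and KO at full sulfate differed from the gap between Col and KO at low sulfate in the test of that difference (limma, adjusted over all probe sets). Each value is the first gap minus the second. For a gene lower than KO in both, a positive value means a wider gap between Col and KO at low sulfate, not a lower level in Col than in OX. The difference was 2.15 ± 0.21 for GSTU20 (adjusted p = 0.0049), 1.23 ± 0.15 for GSL-OH (adjusted p = 0.011) and 1.77 ± 0.23 for UGT74C1 (adjusted p = 0.014), all of aliphatic glucosinolate synthesis. It was 1.33 ± 0.19 for UGT74B1 (adjusted p = 0.023), which was called lower in Col at low sulfate and was not called in OX. The unnamed 249866_at gave 1.63 ± 0.23 (adjusted p = 0.02), but it was under background on both OX arrays and on both Col arrays at low sulfate, so both gaps are lower bounds and the size of this difference cannot be read. GSTU20 was under background on 1 OX array and UGT74C1 on 1 Col array at low sulfate. The means in OX and in Col at low sulfate were -0.19 and 0.81 for GSTU20, 0.29 and 0.41 for UGT74C1 and 2.83 and 2.57 for GSL-OH. In KO the means at full and at low sulfate were 3.20 and 6.35 for GSTU20, 2.81 and 4.70 for UGT74C1 and 5.89 and 6.86 for GSL-OH. For psbB the difference was 1.98 ± 0.20 (adjusted p = 0.0049), higher in OX than KO and lower in Col than KO at low sulfate. For AT5G47980 it was 1.69 ± 0.25 (adjusted p = 0.026).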

How the results depend on the processing

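None of the called named genes changed sign under the 20 settings, and 37 of the 85 calls were made in every setting that held the probe set, 36 of them falls and 248676_at the only rise. The 85 calls (17 rises and 68 falls) became 151 (36 and 115) with probe sets above background on 2 arrays, 137 (30 and 107) with an intensity trend and robust variances, and 43 (1 and 42) with only the 4 arrays compared. With the knockout line as a block, which pairs KO arrays by plant line, 66 were called (11 and 55). Leaving out 1 array gave 41 to 120 calls, 2 to 14 rises and 39 to 109 falls. Each of these omissions took the rises to 11 or fewer, except those of Col at -S. The 632 calls of Col against KO at low sulfate became 1025 with the background filter, 351 with array weights and 252 to 777 without 1 array. The 115 calls of the difference became 223 with that filter, 202 with the trend and 20 to 153 without 1 array. The 79 calls away from the midpoint became 150, 134 and 8 to 70. SDI2 and ATPS3 were called in 6 settings each, with adjusted p from 0.0039 and 0.014. The causes were not tested. The pooled spread rests on 2 arrays a group, and values under background have no order.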

Other observations

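At full sulfate 59 of the 79 probe sets called away from the midpoint had Col outside both other groups, 27 above and 32 below. COR27, a cold-regulated gene that acts on the circadian clock, read -1.91 and -1.5 in Col at +S, against 0.50 and 0.47 in OX and -0.68 and -0.34 in KO (adjusted p = 0.0035 for Col away from the midpoint). Both Col arrays and 1 KO array were under background for COR27, so the size of that difference has no measured value. AT4G33980 read -0.43 and 0.10 in Col at +S, against 1.61 and 2.01 in OX and 1.17 and 1.49 in KO (Col minus midpoint -1.73 ± 0.18, adjusted p = 0.0077), with 1 Col array under background. AT1G56300 read 0.95 and 1.26 in Col at +S, against 2.08 and 2.29 in OX and 2.07 and 2.02 in KO (-1.01 ± 0.12, adjusted p = 0.011). AT5G11420 gave -1.04 ± 0.13 (adjusted p = 0.014) and AT5G47980 -1.2 ± 0.15 (adjusted p = 0.016). In all 5 genes both Col arrays read below all OX and KO arrays, and apart from AT5G47980 none was called between OX and KO. At low sulfate AT4G33980 was lower in Col, at -0.84 and -1.1, against 0.43 and 0.37 in KO (both Col arrays under background, at least 1.28-fold lower, adjusted p = 0.0096). Without Col replicate 1 at +S, 8 probe sets were called away from the midpoint, and without Col replicate 2, 22.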
